A study of Arabidopsis thaliana with 24 samples.

Results

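The effect of seed treatment with methyl jasmonate was measured in wild-type Arabidopsis thaliana rosettes fed on by spider mites. The comparison used 8 of the 24 RNA-seq libraries of the study, chosen by their labels: 4 from primed plants with mites and 4 from not-primed plants with mites. Primed plants grew from seed treated with methyl jasmonate, and not-primed plants from seed treated with water. Both kinds were sampled 24 hours after infestation with Tetranychus urticae, a mite that empties single leaf cells. The other 16 libraries are 4 each of primed and not-primed plants without pests, and 4 each of primed and not-primed plants with Pieris brassicae caterpillars. All plants were WT, and the age of the plants is not given in the sources used here. Biological replicates are numbered in the labels, which do not tell single plants from pooled ones. The p-values therefore reflect only how far these samples scatter, which may be technical.

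Jasmonate is the hormone that couples wounding and chewing or piercing feeders to defence. JAZ repressors hold back MYC factors until the hormone removes them, and the freed factors switch on storage protein, glucosinolate and jasmonate synthesis genes. A second branch runs through ethylene and ERF factors such as ORA59 to defensins, while sugar, nitrate and light signals set how much a leaf invests in growth.

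Totals in the 8 mite libraries were between 18868846 and 27986799 counts. Levels are in CPM (counts divided by the normalised library size and brought to a common scale), and changes as log2 fold changes ± SE, primed over not primed, with n = 4 libraries per group. Light-harvesting and photosystem genes summed to between 90259 and 98345 CPM in primed libraries and between 85048 and 90293 CPM in not-primed libraries, as in green leaf. None of the 4 root markers was tested, 2 of them were at 0 in all mite libraries, and their sum was at most 0.158 CPM in primed and 0.265 CPM in not-primed libraries. Markers of flowering (0 of 8 called), trichomes (0 of 3), guard cells (0 of 4) and phloem (0 of 3) had summed levels that overlapped between the groups. In these bulk samples, fewer cells of a type and less RNA per cell cannot be told apart.

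Outside the mite libraries, the not-primed uninfested plants fell into 2 pairs. The lipoxygenase gene LOX2 stood there at 462 and 214 CPM in replicates 1 and 2 and at 1278 and 1805 CPM in replicates 3 and 4. These libraries enter the spread shared by the fit of all 24 libraries, as do the primed uninfested and the caterpillar libraries. Calls are therefore also given from a fit of the 8 mite libraries alone. Leaving out either pair changed no call under mites among the 92 named genes. Which libraries widen the shared spread was not tested.

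In mite-infested rosettes, the genes called higher in primed plants included the BTB-TAZ genes BT2, BT4 and BT5, the Kelch F-box genes KFB01, KFB20 and KFB50 and 6 of 12 tested genes of darkness and low sugar. Those called lower included 4 B-box genes of light signalling and 7 of 16 tested heat shock genes. In the fit of all 24 libraries, 1275 of 20038 tested genes passed an adjusted p of 0.05 (6.36%), 709 higher (3.54%) and 566 lower (2.82%) in primed plants. The fit of the 8 mite libraries called 1570 of 19298 genes (8.14%), 876 higher (4.54%) and 694 lower (3.6%). The fits shared 1164 calls, every one in the same direction, which is 91.3% of the calls of the larger fit and 74.1% of those of the smaller. Most changes were small: the median was 0.54 among genes called higher and −0.40 among genes called lower, and the median of all tested genes was 0.00. A change of at least 2-fold was seen in 162 genes called higher and 43 called lower, and of at least 4-fold in 28 and 5. The 8 libraries separated by priming on the first principal component, which held 31.3% of the variance, with scores between 16.8 and 23.5 in primed and between −26.5 and −15.5 in not-primed libraries. Levels did not overlap between the groups in 2430 genes (12.1%), 1295 higher (6.46%) and 1135 lower (5.66%), and 1169 of the 1275 called genes were among them.

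The genes at the ends were taken by a rule: called in both fits, with at least 5 CPM in a mite group and no overlap between the groups. The lack of overlap described for these genes was thus set by the choice. Those highest in primed plants were led by BTB-TAZ scaffold genes, Kelch F-box genes and the NAC factor gene ANAC055. BT2, a BTB-TAZ protein gene tied to sugar and nitrogen responses, was at 33.7, 46.4, 48.4 and 52.0 CPM in primed libraries, against 1.81, 2.24, 3.08 and 0.797 CPM in not-primed libraries. Every primed library exceeded every not-primed one by a wide margin. The change was 4.55 ± 0.27 (adjusted p = 1.05e-11), a 23.4-fold difference and the largest among the genes named by the rule. BT5, its relative, stood at 100.1, 96.9, 108 and 101 CPM in primed libraries, against 14.1, 15.0, 11.3 and 11.3 CPM in not-primed libraries. The groups were tight and far apart, with a change of 2.97 ± 0.15 (adjusted p = 3.29e-13).

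KFB20 encodes a Kelch F-box protein that marks phenylalanine ammonia-lyase, the entry enzyme of phenylpropanoid synthesis, for breakdown. Its levels were 98.7, 93.8, 100.2 and 117 CPM in primed libraries, against 13.8, 10.7, 13.7 and 13.8 CPM in not-primed libraries. All primed values lay far above the not-primed ones, a change of 2.98 ± 0.12 (adjusted p = 2.02e-14). ANAC055, a NAC transcription factor gene that acts downstream of MYC2, was at 12.6, 12.8, 15.9 and 14.4 CPM in primed libraries, against 1.86, 0.795, 1.54 and 2.52 CPM in not-primed libraries. Again the groups did not overlap, and the change was 3.03 ± 0.31 (adjusted p = 1.08e-07).

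OXS3, a gene first described for tolerance of oxidative stress, had 91.9, 84.2, 93.3 and 83.3 CPM in primed libraries, against 9.89, 8.25, 18.3 and 13.4 CPM in not-primed libraries. The lowest primed library stood well above the highest not-primed one, a change of 2.82 ± 0.18. AT3G15450, annotated in RefSeq as an aluminium-induced protein with YGL and LRDR motifs, had 137, 149, 192 and 161 CPM in primed libraries, against 22.3, 16.6, 17.6 and 18.8 CPM in not-primed libraries. It changed by 3.08 ± 0.16 without overlap. AT1G23390, a Kelch-repeat F-box gene, had 194, 204, 213 and 209 CPM in primed libraries, against 44.7, 35.0, 43.7 and 46.1 CPM in not-primed libraries. This was the most abundant of the 12 by CPM, which takes no account of gene length, and its change was 2.27 ± 0.11. The other 5 were AT2G20670 (3.11 ± 0.16), AT3G15630 (2.94 ± 0.17), AT5G21940 (2.67 ± 0.15), the aspartyl protease family gene AT5G19120 (2.55 ± 0.12) and the RING zinc finger gene AT1G02610 (2.42 ± 0.29).

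**Figure D1:**
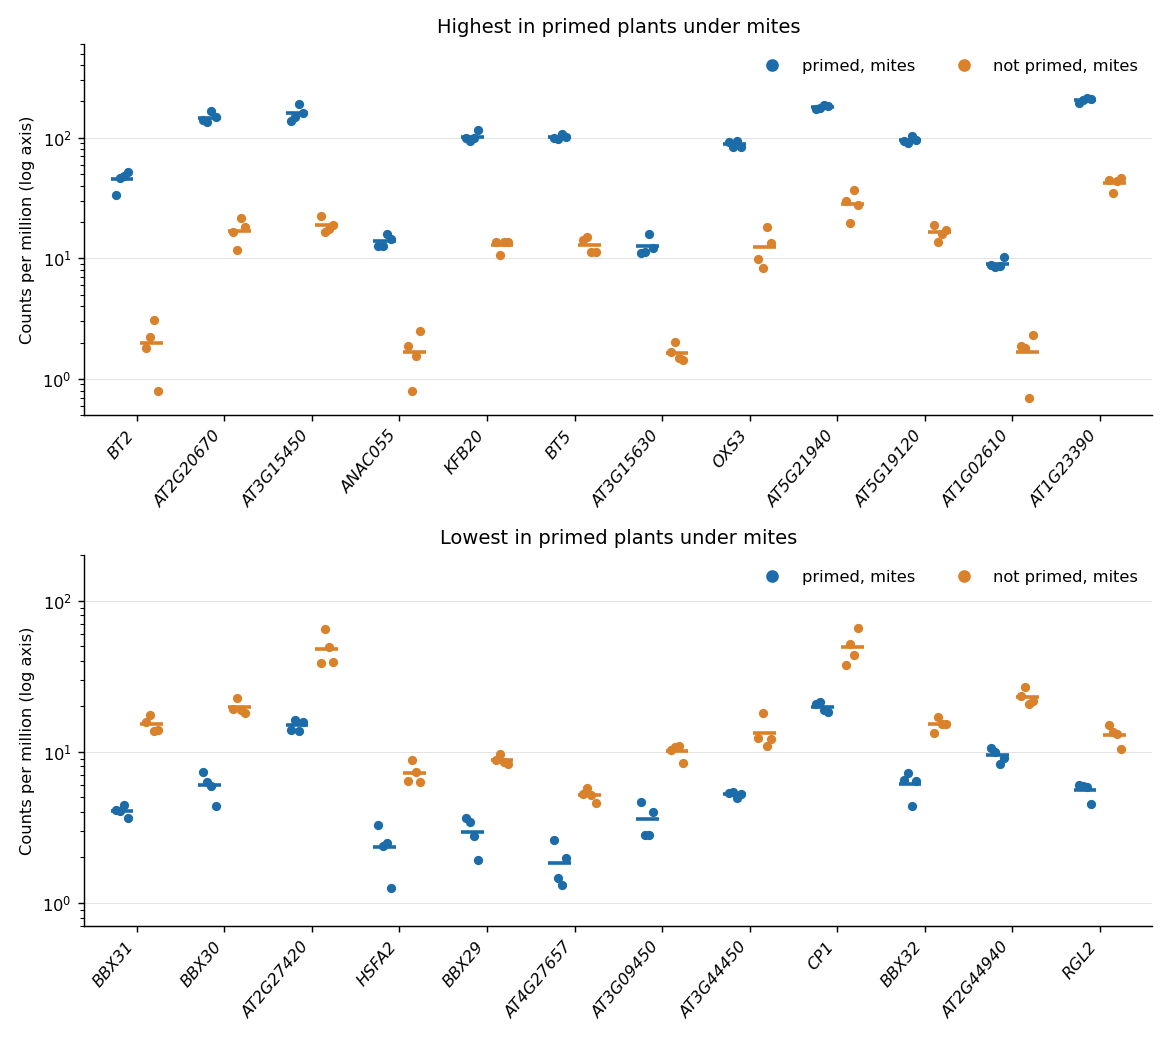
CPM (log axis) in each of the 4 primed and 4 not-primed mite libraries for the 12 genes with the highest and the 12 with the lowest log2 fold changes among those named by the rule; points are libraries and short lines are group means. The rule itself required that the groups not overlap. The gap is widest for BT2, at 33.7 to 52.0 CPM in primed and 0.797 to 3.08 CPM in not-primed libraries.

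At the other end of the genes taken by the rule stood small B-box genes, which encode zinc finger proteins of light signalling. The 5 genes called lower by at least 4-fold did not meet the rule. BBX31 was at 4.12, 4.04, 4.44 and 3.64 CPM in primed libraries, against 15.6, 17.6, 13.7 and 14.0 CPM in not-primed libraries. All primed values were below the lowest not-primed one, a change of −1.91 ± 0.15 (adjusted p = 2.02e-09). BBX30 had 7.41, 6.30, 5.90 and 4.38 CPM in primed libraries, against 19.1, 22.6, 18.8 and 18.2 CPM in not-primed libraries, and changed by −1.72 ± 0.17. BBX29 (−1.60 ± 0.17) and BBX32 (−1.30 ± 0.13) were lower as well, each without overlap.

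HSFA2, a heat stress transcription factor gene, had 3.29, 2.38, 2.50 and 1.25 CPM in primed libraries, against 6.42, 8.85, 7.32 and 6.33 CPM in not-primed libraries. Its primed level was the lower in every pairing of libraries, with a change of −1.64 ± 0.21 (adjusted p = 5.68e-06). The cysteine proteinase family gene AT2G27420 had 14.0, 16.2, 13.8 and 15.8 CPM in primed libraries, against 38.5, 64.8, 49.6 and 39.1 CPM in not-primed libraries. That was a change of −1.68 ± 0.17. CP1, a calcium-binding protein gene, changed by −1.33 ± 0.16, and RGL2, a DELLA repressor gene best known from germination, by −1.22 ± 0.14. The other 4 were AT4G27657 (−1.50 ± 0.25), AT3G09450 (−1.50 ± 0.16), AT3G44450 (−1.35 ± 0.17) and AT2G44940 (−1.29 ± 0.12). None of the 24 genes at the ends lost its call when any 1 mite library was left out.

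Of 12 tested genes that darkness and low sugar switch on, 6 were called higher in primed plants and 0 lower, with a median of 0.63, against 6.36% called and a median of 0.00 over all tested genes. The list, like all lists here, was drawn up with earlier results of these libraries known and was given no set test. In the lists that follow, a share of members called that is near 6.36% is not a result about the list. For counts from the fit of 8 the share over all genes is 8.14%. TPS11 encodes a trehalose-phosphate synthase-like protein of the class without clear synthase activity, and had 75.6, 80.6, 86.3 and 83.5 CPM in primed libraries, against 20.5, 14.1, 16.1 and 19.4 CPM in not-primed libraries. The groups were clearly apart, by 2.22 ± 0.14 (adjusted p = 1.83e-11). Its relative TPS8 had 224, 240.3, 236 and 247 CPM in primed libraries, against 72.6, 61.4, 68.8 and 71.4 CPM in not-primed libraries, a change of 1.79 ± 0.09. TPS9 (1.14 ± 0.11) and TPS10 (AT1G60140, 0.62 ± 0.12), of the same class, were also called higher.

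DIN1, a dark-inducible senescence marker also known as SEN1, had 35.6, 32.2, 37.1 and 42.4 CPM in primed libraries, against 6.16, 7.11, 7.85 and 15.7 CPM in not-primed libraries. The lowest primed value was above the highest not-primed one, a change of 1.98 ± 0.34 (adjusted p = 0.000326). DIN10, a raffinose synthase family gene, had 85.4, 88.0, 119 and 123 CPM in primed libraries, against 39.4, 35.4, 32.6 and 34.8 CPM in not-primed libraries, and changed by 1.54 ± 0.15. The fit of 8 libraries also called DIN11 higher (0.64 ± 0.14) and DIN9, a phosphomannose isomerase gene, lower (−0.37 ± 0.10), though the DIN9 call ended in 4 of the 8 fits that left out 1 library.

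Of 8 tested nitrate and BTB-TAZ genes 4 were called higher and 0 lower, with a median of 0.30, and 3 of the 4 were the BTB-TAZ genes BT2, BT4 and BT5. BT4 had 25.1, 26.7, 25.4 and 24.7 CPM in primed libraries, against 14.6, 12.1, 10.8 and 13.2 CPM in not-primed libraries. The change was 1.01 ± 0.23 without overlap (adjusted p = 0.00668). BT1, by contrast, was at 80.0, 78.5, 76.3 and 72.4 CPM in primed libraries, against 51.7, 81.2, 74.8 and 68.0 CPM in not-primed libraries, which overlapped (0.16 ± 0.11, adjusted p = 0.506). NIA2, the main nitrate reductase gene, was higher by 0.27 ± 0.07, a call that ended in 2 of the 8 fits without 1 mite library (changes of 0.20 to 0.30). NIA1 was called in the fit of 8 libraries alone (0.34 ± 0.08).

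Among 21 phenylpropanoid genes and their F-box regulators, 5 were called higher and 1 lower, and most of the calls fell on the regulators. KFB50, a partner of KFB20 in removing phenylalanine ammonia-lyase, had 314, 282, 301 and 330.2 CPM in primed libraries, against 100.3, 77.3, 114 and 111 CPM in not-primed libraries. Each primed library held more than any not-primed one (1.61 ± 0.10, adjusted p = 4.18e-11). AT2G44130, a Kelch-repeat gene of the same list, changed by 1.24 ± 0.15 and KFB01, which acts on the same enzymes, by 0.83 ± 0.15. Of the enzyme genes, PAL3 changed by 0.35 ± 0.08 and the lignin gene CCR1 by −0.23 ± 0.06. CCR1 lost its call in 5 of the 8 fits that left out 1 mite library, and PAL3 in 5 of 8 when only the mite libraries were fitted. The list's median was 0.01.

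In the B-box and HY5 list of light signalling genes, 6 of 7 were called lower and 0 higher, with a median of −1.30. Besides BBX29 to BBX32, these were HYH (−0.46 ± 0.08) and HY5 (−0.41 ± 0.12), which encode related bZIP factors that promote light-dependent development. HY5 had 7.30, 7.45, 10.1 and 6.77 CPM in primed libraries, against 8.50, 11.2, 10.2 and 11.7 CPM in not-primed libraries. These values overlapped, and the HY5 call was absent in the fit of 8 libraries (adjusted p = 0.09) and in 6 of the 8 fits of the whole set without 1 mite library. BBX28 changed by −0.06 and was not called.

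Of 16 tested heat shock genes 7 were called lower and 0 higher in either fit, with a median of −0.61 and changes between −1.64 and 0.25. The cytosolic chaperone gene HSP70 had 100.1, 83.3, 92.5 and 77.9 CPM in primed libraries, against 184, 221, 149.9 and 194 CPM in not-primed libraries. Primed levels were below all not-primed ones (−1.08 ± 0.12, adjusted p = 3.4e-07). HSP90-1 had 48.8, 43.6, 47.6 and 35.6 CPM in primed libraries, against 79.2, 78.0, 65.2 and 78.8 CPM in not-primed libraries (−0.78 ± 0.12). The disaggregase gene HSP101 changed by −0.86 ± 0.14, the coactivator gene MBF1C by −0.76 ± 0.12 and the immunophilin gene FKBP65 by −0.59 ± 0.13. The small heat shock protein gene HSP17.4 changed by −1.06 ± 0.27, a call that ended in 1 of the 8 fits without 1 mite library (adjusted p = 0.0762).

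Clock genes split, with 2 of 19 called higher and 4 lower and a median of 0.01. RVE2, a MYB-like factor gene, had 12.3, 13.2, 13.7 and 10.3 CPM in primed libraries, against 4.82, 6.02, 7.05 and 6.50 CPM in not-primed libraries. The change of 1.02 ± 0.14 was without overlap, and RVE1, a relative tied to auxin, changed by 0.42 ± 0.10. PRR9, a morning repressor gene, had 16.4, 15.7, 14.0 and 15.8 CPM in primed libraries, against 25.4, 34.2, 27.4 and 26.6 CPM in not-primed libraries (−0.88 ± 0.12). CCA1, a core morning oscillator gene, had 237, 215, 209 and 221 CPM in primed libraries, against 252, 305, 294 and 269 CPM in not-primed libraries. It changed by −0.34 ± 0.06, beside LHY (−0.22 ± 0.05) and RVE8 (−0.25 ± 0.06). Leaving out 1 mite library ended the calls of LHY and RVE8 in 2 of 8 fits each and that of RVE1 in 1 (adjusted p = 0.0508).

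**Figure D2:**
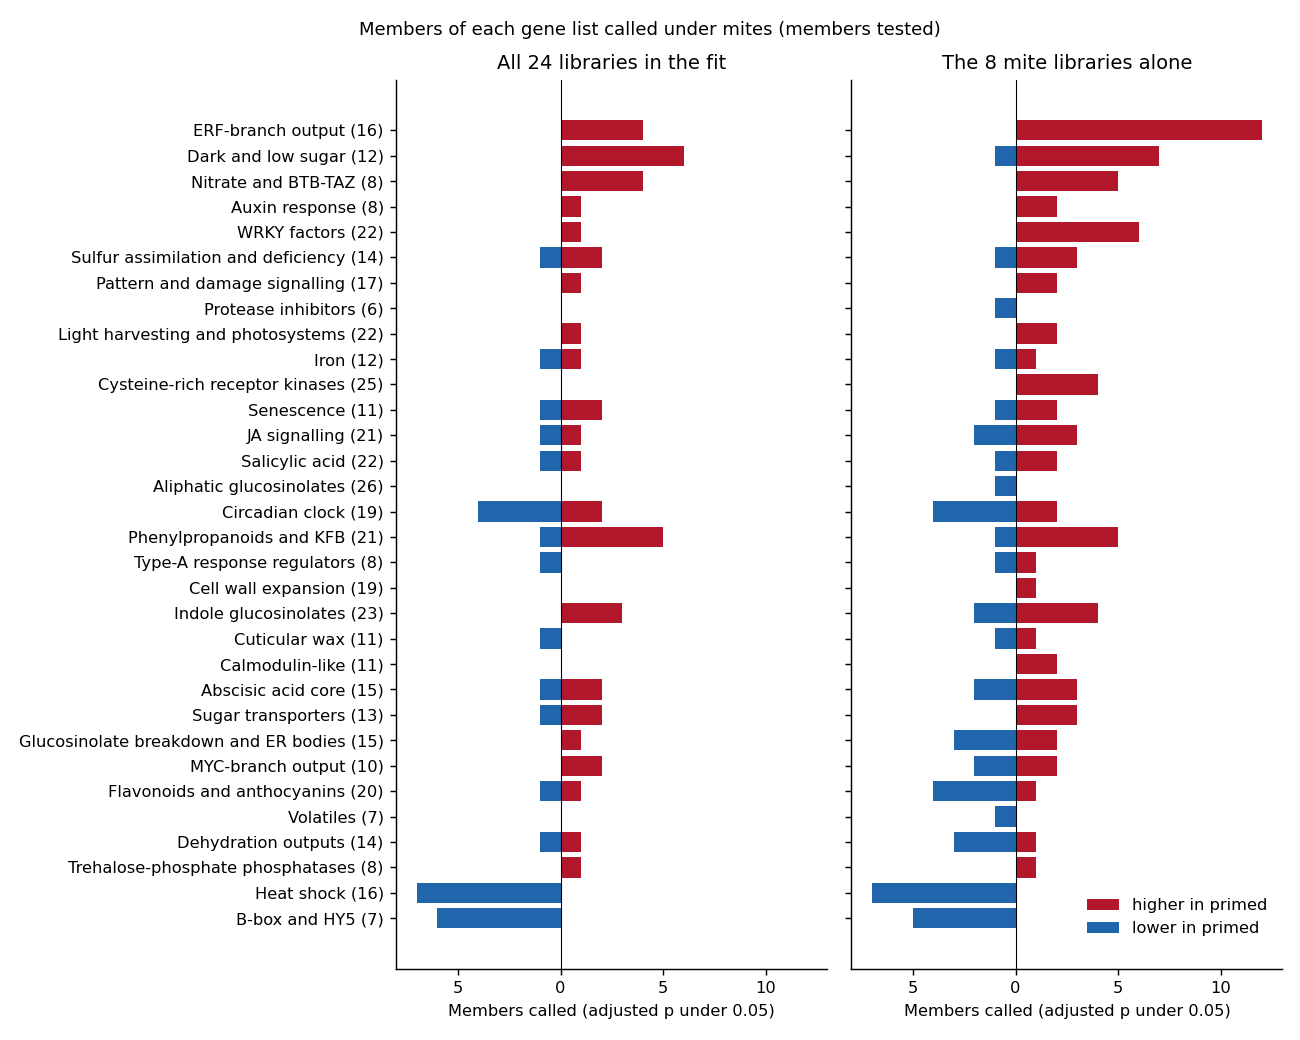
Number of members of each gene list called higher (right of 0) or lower (left of 0) in primed plants under mites at an adjusted p under 0.05, in the fit of all 24 libraries (left) and of the 8 mite libraries alone (right); the number of members tested stands in brackets, and lists are ordered by median change, highest at the top. Lists with no called member in either fit are not drawn, among them jasmonate synthesis and turnover. The ERF branch shows 4 against 12 members higher between the fits, while the heat shock list shows 7 lower in both.

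No jasmonate synthesis gene (0 of 17 tested) and no turnover gene (0 of 11) was called in the fit of 24 libraries, against 6.36% of all tested genes, or in the fit of 8. At these list sizes that is near the share over all genes. Their medians were −0.05 and −0.13. LOX2, the plastid lipoxygenase gene that starts jasmonate synthesis, had 11356, 8988, 9651 and 9947 CPM in primed libraries, against 10709, 10178, 10706 and 12309 CPM in not-primed libraries. The groups overlapped, with a change of −0.14 ± 0.36 (95% interval −0.87 to 0.60, adjusted p = 0.903). In the fit of all libraries the median SE of the synthesis list was 0.22, against 0.07 in the fit of 8. That fit holds no uninfested and no caterpillar library, and the cause of the gap was not tested.

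Among 21 jasmonate signalling genes, 1 was called higher and 1 lower, or 3 and 2 in the fit of 8 libraries. MYC4, a MYC factor gene that drives glucosinolate and defence genes, had 44.7, 34.3, 34.2 and 36.8 CPM in primed libraries, against 57.3, 72.9, 76.1 and 66.1 CPM in not-primed libraries. All primed values were lower (−0.86 ± 0.09, adjusted p = 1.17e-07). Its better known relative MYC2 had 382, 328, 306 and 340.2 CPM in primed libraries, against 436, 388, 451 and 477 CPM in not-primed libraries. These did not overlap either, and the change of −0.37 was called in the fit of 8 libraries (SE 0.07, adjusted p = 0.00162) but not in that of 24 (SE 0.24, adjusted p = 0.464).

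JAZ8, a repressor gene whose protein resists hormone-driven breakdown, had 12.5, 7.92, 11.1 and 10.8 CPM in primed libraries, against 5.18, 4.57, 6.36 and 5.03 CPM in not-primed libraries. It was higher in each primed library (1.00 ± 0.30, adjusted p = 0.0482), but 7 of the 8 fits without 1 mite library ended the call (changes of 0.91 to 1.12). The fit of 8 libraries gave it an adjusted p of 0.000142 and added the repressor genes JAZ7 (0.92 ± 0.12) and JAZ2 (0.20 ± 0.06), of which JAZ2 lost its call in 5 of the 8 fits that left out 1 library and JAZ7 in 0. JAZ10, a repressor gene that marks active jasmonate signalling, had 137, 112, 119.5 and 112 CPM in primed libraries, against 114, 82.8, 106 and 109 CPM in not-primed libraries. Those ranges overlapped, and the gene was not called in either fit (0.22 ± 0.29, adjusted p = 0.782).

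Output of the MYC branch had 2 of 10 members called higher and 0 lower, and the 2 were NAC factor genes: ANAC055 and ANAC072. ANAC072 had 76.8, 61.3, 67.4 and 58.7 CPM in primed libraries, against 32.7, 18.4, 27.2 and 28.8 CPM in not-primed libraries, a change of 1.3 ± 0.27 without overlap. The storage protein gene VSP2 had 3354, 3092, 3013 and 3022 CPM in primed libraries, against 3617, 3669, 3708 and 4514 CPM in not-primed libraries. The primed libraries were all lower, by −0.31 ± 0.46 in the fit of all libraries (adjusted p = 0.804) and −0.31 ± 0.07 in that of 8 (adjusted p = 0.00497). VSP1, a close copy that may share reads with VSP2, was at −0.33 ± 0.06 in the fit of 8 libraries and was likewise called in it alone.

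Of 16 tested members of the ethylene and ERF branch, 4 were called higher and 0 lower in the fit of 24 libraries, 12 and 0 in the fit of 8, and the median was 0.88. ORA59, the ERF factor gene that integrates both hormones, had 5.16, 6.26, 3.45 and 4.21 CPM in primed libraries, against 1.76, 1.34, 2.23 and 1.72 CPM in not-primed libraries. Primed levels were higher throughout (1.44 ± 0.34, adjusted p = 0.00868). EIL1, which encodes a factor that relays the ethylene signal, had 59.4, 54.1, 62.9 and 55.4 CPM in primed libraries, against 41.7, 48.4, 47.8 and 44.1 CPM in not-primed libraries (0.35 ± 0.06). ERF104, a factor gene of the response to bacterial flagellin, had 8.81, 9.67, 11.7 and 13.8 CPM in primed libraries, against 6.94, 3.98, 6.74 and 5.45 CPM in not-primed libraries (0.93 ± 0.25). Neither gene overlapped between the groups, but the ERF104 call ended in 4 of the 8 fits without 1 mite library, and that of ERF5 (0.84 ± 0.26) in 5.

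The defensin gene PDF1.2a had 91.7, 88.1, 129.7 and 87.0 CPM in primed libraries, against 30.3, 43.0, 92.8 and 45.0 CPM in not-primed libraries. Not-primed replicate 3 lay within the primed range, and the other 3 lay below it. The change of 0.91 was called in the fit of 8 libraries (SE 0.22, adjusted p = 0.0118) but not in that of 24 (SE 0.49, adjusted p = 0.357). Also called in the fit of 8 alone were the defensin genes PDF1.2b (1.17 ± 0.19), PDF1.2c (1.02 ± 0.25) and PDF1.3 (1.02 ± 0.22), which may share reads, and PR4, a chitin-binding protein gene (0.40 ± 0.06). ACS6, an ethylene synthesis gene (0.54 ± 0.09), ERF2 (0.67 ± 0.09) and ERF6 (1.17 ± 0.30) completed the 12. Of these, ERF6 lost its call in 3 of the 8 fits that left out 1 library, and PDF1.2a, PDF1.2c and ERF5 in 1 each.

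**Figure D3:**
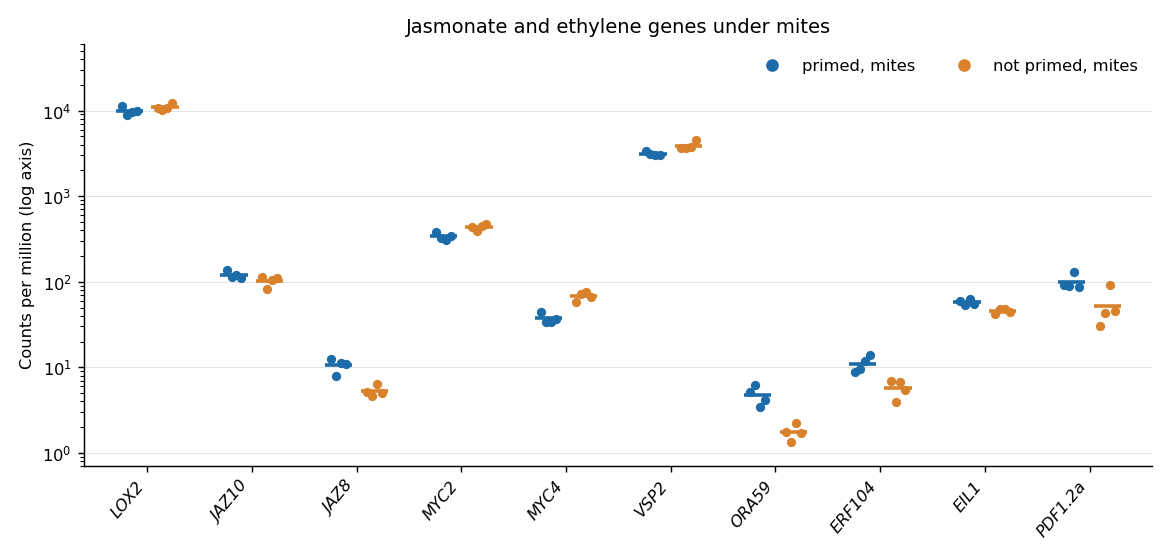
CPM (log axis) in each of the 4 primed and 4 not-primed mite libraries for 10 jasmonate and ethylene genes; points are libraries and short lines are group means. LOX2 and JAZ10 overlap between the groups, MYC2, MYC4 and VSP2 lie lower in all 4 primed libraries, and JAZ8, ORA59, ERF104 and EIL1 lie higher in all 4.

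Of 22 salicylic acid genes 1 was called higher and 1 lower, near the 6.36% of all tested genes, with a median of 0.02. NPR3, a salicylic acid receptor gene, had 51.1, 40.9, 44.7 and 42.5 CPM in primed libraries, against 34.7, 25.2, 27.1 and 30.0 CPM in not-primed libraries (0.61 ± 0.14). EPS1, which encodes the last enzyme of salicylic acid synthesis, had 17.6, 14.0, 10.5 and 12.4 CPM in primed libraries, against 21.4, 22.4, 16.7 and 22.5 CPM in not-primed libraries. The groups overlapped at 1 library, and the call (−0.61 ± 0.18, adjusted p = 0.0466) ended in 6 of the 8 fits without 1 mite library. The marker gene PR1 had 35.9, 60.5, 70.6 and 31.5 CPM in primed libraries, against 73.9, 32.4, 10.6 and 23.2 CPM in not-primed libraries, a scatter wide in both groups (0.50 ± 0.51, adjusted p = 0.694). The regulator gene CBP60g was called in the fit of 8 alone (0.41 ± 0.11), a call that 5 of its 8 left-out libraries ended.

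WRKY factor genes, which act in immune and wound responses, had 1 of 22 called higher and 0 lower in the fit of 24 libraries, and 6 and 0 in that of 8. WRKY22 had 5.89, 6.10, 5.90 and 6.27 CPM in primed libraries, against 3.78, 1.99, 3.77 and 3.86 CPM in not-primed libraries (0.85 ± 0.17, adjusted p = 0.00158). The 5 added by the fit of 8 were WRKY33 (0.67 ± 0.09), WRKY40 (0.73 ± 0.13), WRKY53 (0.67 ± 0.14), WRKY25 (0.45 ± 0.08) and WRKY28 (0.58 ± 0.15). WRKY33 had 82.2, 73.2, 81.6 and 82.6 CPM in primed libraries, against 60.6, 41.8, 52.7 and 46.1 CPM in not-primed libraries, without overlap. The WRKY28 call ended in 3 of the 8 fits that left out 1 library.

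In pattern and damage signalling, 1 of 17 genes was called higher and 0 lower. MPK3, a stress-activated protein kinase gene, had 130.2, 112, 116 and 118 CPM in primed libraries, against 100.1, 81.4, 100.3 and 81.5 CPM in not-primed libraries (0.39 ± 0.12, adjusted p = 0.0482). Its groups did not overlap, yet 6 of the 8 fits without 1 mite library ended the call. Cysteine-rich receptor kinases (25 tested), calmodulin-like genes (11 tested) and camalexin genes (7 tested) had 0 calls in the fit of 24 libraries. The fit of 8 called 4, 2 and 0 of them higher, among them CML12, a touch-responsive calcium sensor gene (0.45 ± 0.07). Each of the 4 receptor kinase calls ended in some of the 8 fits that left out 1 library, CRK4 (0.43 ± 0.13) and CRK10 (0.23 ± 0.06) in 6, CRK14 (0.42 ± 0.11) in 5 and CRK11 (0.41 ± 0.10) in 3. PAD3, the last step of camalexin synthesis, had 20.1, 16.6, 25.1 and 12.1 CPM in primed libraries, against 16.9, 21.9, 12 and 15.6 CPM in not-primed libraries, which overlapped (0.15 ± 0.59, adjusted p = 0.94).

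Indole glucosinolate genes, whose products deter several piercing feeders, had 3 of 23 called higher and 0 lower, with a median of −0.05. MYB51, a regulator gene of the pathway, had 7.41, 9.11, 7.84 and 9.23 CPM in primed libraries, against 4.66, 4.47, 3.87 and 5.32 CPM in not-primed libraries (0.87 ± 0.18, adjusted p = 0.00197). CYP81F2, which encodes a ring hydroxylase of indole glucosinolates, had 4.90, 6.46, 6.14 and 3.78 CPM in primed libraries, against 2.69, 2.04, 2.76 and 1.22 CPM in not-primed libraries. Both genes were higher in every primed library; the CYP81F2 call (1.3 ± 0.32) ended in 1 of the 8 fits without 1 mite library (adjusted p = 0.0557). IGMT1, a methyltransferase gene acting after CYP81F2, had 12.9, 12, 12.1 and 11.6 CPM in primed libraries, against 8.75, 7.11, 6.90 and 7.34 CPM in not-primed libraries (0.69 ± 0.15).

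In the fit of 8 libraries 2 further indole pathway genes were called lower. CYP79B2, the first committed step, had 267, 265, 247 and 237 CPM in primed libraries, against 308, 285, 309 and 337 CPM in not-primed libraries. No value overlapped, and the change was −0.28 ± 0.06 in that fit (adjusted p = 0.00412), against −0.29 ± 0.24 in the fit of 24 (adjusted p = 0.615). MYB34, another regulator gene, had 86.5, 78.5, 66.6 and 71.4 CPM in primed libraries, against 107, 102, 110.0 and 113 CPM in not-primed libraries, and was called in the fit of 8 alone (−0.51 ± 0.07). IGMT2 (0.89 ± 0.27) was the other addition, and its call ended in 6 of the 8 fits that left out 1 library.

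Aliphatic glucosinolate synthesis had 0 of 26 members called in the fit of 24 libraries and 1 lower in that of 8, with a median of 0.01. CYP79F1, its entry enzyme gene, had 475, 551, 457 and 494 CPM in primed libraries, against 494, 481, 493 and 492 CPM in not-primed libraries, a change of 0.01 ± 0.16 (95% interval −0.32 to 0.35). Among 15 genes of glucosinolate breakdown, PEN2, an atypical myrosinase gene, was the 1 called, at 0.22 ± 0.06, and 4 of the 8 fits without 1 mite library ended that call. In the fit of 8 libraries the specifier protein genes ESM1 (−0.20 ± 0.05) and NSP1 (−0.28 ± 0.07) and the beta-glucosidase gene PYK10 (−0.41 ± 0.10) were called lower, and PEN2 and NAI1, a factor gene of ER body formation (0.38 ± 0.08), were called higher. The NAI1 call ended in 0 of the 8 fits that left out 1 library, and that of PEN2 in 4. Of the 3 called lower, leaving out 1 library ended the call of NSP1 in 4 of 8 fits, of PYK10 in 3 and of ESM1 in 1.

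Sulfur genes, which supply glucosinolate synthesis, had 2 of 14 called higher and 1 lower. AT1G04770 had 53.8, 54.1, 46.8 and 47.0 CPM in primed libraries, against 26.4, 28.5, 28.0 and 23.6 CPM in not-primed libraries (0.92 ± 0.11). SHM7, a serine hydroxymethyltransferase gene, changed by 0.81 ± 0.12, and both were apart in every library. APR2, the main adenylylsulfate reductase gene, went the other way, at 298, 287, 241 and 256 CPM in primed libraries, against 353, 477, 436 and 365 CPM in not-primed libraries (−0.59 ± 0.09). Flavonoid genes had 1 of 20 called higher and 1 lower. In the fit of 8, where 8.14% of all genes were called, 1 of 19 was higher and 4 were lower. MYBL2, a repressor gene of anthocyanin synthesis, had 60.5, 60.6, 61.9 and 58.5 CPM in primed libraries, against 27.4, 22.9, 22.9 and 28.1 CPM in not-primed libraries, more than any not-primed value in all 4 (1.25 ± 0.11, adjusted p = 2.49e-08). UGT78D2, a flavonoid glucosyltransferase gene, changed by −0.30 ± 0.09, and 5 of the 8 fits without 1 mite library ended its call. The fit of 8 also called UGT78D1, PAP1 and F3H lower. Leaving out 1 of its libraries ended the call of UGT78D1 in 0 of 8 fits, of UGT78D2 in 4, of PAP1 in 5 and of F3H in 6.

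Abscisic acid genes, which govern water loss and drought responses, had 2 of 15 called higher and 1 lower, or 3 and 2 of 14 in the fit of 8. PYL5, a hormone receptor gene, had 10.6, 12.6, 12.7 and 12 CPM in primed libraries, against 4.46, 5.77, 4.46 and 5.24 CPM in not-primed libraries. Primed values were all higher (1.27 ± 0.16, adjusted p = 5.66e-06), and the receptor gene PYR1 changed by 0.37 ± 0.07. HAB1, a phosphatase gene that the receptors inhibit, changed by −0.24 ± 0.07, with overlap at primed replicate 1, and lost its call in 5 of the 8 fits without 1 mite library. Among 14 dehydration genes, the factor genes ABF4 (0.36 ± 0.09) and ABF2 (−0.25 ± 0.06) were called in opposite directions, the ABF2 call ending in 3 of those fits. The fit of 8 called 1 of 13 higher and 3 lower, adding ABF3 and KIN2. Among abscisic acid genes it added CYP707A3 (higher) and HAI1 (lower). Leaving out 1 of its libraries ended the call of CYP707A3 in 0 of 8 fits, of HAI1 in 3, of ABF3 in 4, of KIN2 in 5 and of ABF2 in 6.

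Senescence genes had 2 of 11 called higher and 1 lower. NAP, a NAC factor gene that promotes leaf ageing, had 18.1, 21.9, 25.2 and 17.4 CPM in primed libraries, against 7.77, 5.07, 7.00 and 8.64 CPM in not-primed libraries (1.53 ± 0.19, adjusted p = 3.27e-06). SAG21 was higher by 0.79 ± 0.22 and SGR1, a chlorophyll breakdown gene, lower by −0.30 ± 0.08. Each of these 2 calls ended in 4 of the 8 fits without 1 mite library, while that of NAP did not end in any.

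Among sugar transporter genes, 2 of 13 were called higher and 1 lower. STP1, a hexose uptake carrier gene, had 125, 113, 126 and 147 CPM in primed libraries, against 83.4, 73.1, 70.8 and 78.1 CPM in not-primed libraries (0.74 ± 0.10), and STP4 changed by 0.47 ± 0.09. SWEET15, a sucrose exporter gene of ageing leaves, had 0.574, 0.158, 0.992 and 0.748 CPM in primed libraries, against 1.76, 1.69, 0.796 and 2.05 CPM in not-primed libraries. At these low levels the groups overlapped, and the call (−1.37 ± 0.38) was absent in the fit of 8 (adjusted p = 0.0562) and in 5 of the 8 fits without 1 mite library. TPPH, a trehalose-phosphate phosphatase gene, was the 1 of 8 of its family called, at 0.52 ± 0.11.

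Iron genes had 1 of 12 called higher and 1 lower. BHLH101, an iron deficiency factor gene, had 2.76, 3.57, 3.02 and 3.71 CPM in primed libraries, against 0.932, 1.54, 0.902 and 1.97 CPM in not-primed libraries (1.27 ± 0.33), a call that ended in 2 of the 8 fits without 1 mite library. AT2G30766, another iron-responsive gene, had 40.7, 49.8, 43.5 and 41.7 CPM in primed libraries, against 54.9, 91.3, 89.8 and 87.0 CPM in not-primed libraries (−0.88 ± 0.19). Growth-related lists showed single calls. ARR6, a cytokinin feedback gene, had 3.39, 3.37, 3.21 and 3.39 CPM in primed libraries, against 6.58, 8.75, 8.70 and 4.99 CPM in not-primed libraries (−1.11 ± 0.18, 1 of 8 response regulators). IAA1, an auxin response repressor gene, changed by 0.56 ± 0.11 (1 of 8), and the wax and fatty acid elongase gene KCS1 by −0.50 ± 0.09 (1 of 11).

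Of 22 light-harvesting and photosystem genes 1 was called higher and 0 lower, near the 6.36% of all tested genes, with a median of 0.09. The called gene, LHCB1.4, which may share reads with its close copies, had 1067, 1121, 1138 and 1309 CPM in primed libraries, against 725, 744, 805 and 754 CPM in not-primed libraries (0.61 ± 0.09, adjusted p = 4.61e-05). LHCB1.3 had 11867, 11574, 11597 and 12984 CPM in primed libraries, against 10848, 11429, 12096 and 11583 CPM in not-primed libraries, with overlap (0.06 ± 0.06, 95% interval −0.06 to 0.19). None of 15 Calvin cycle genes, 12 cell division genes and 16 DNA methylation genes was called in either fit. Cell wall expansion had 0 of 19 called, with XTH22 higher in the fit of 8 alone (0.74 ± 0.10). Over all lists, 74 genes were called in the fit of 24 libraries, of which 21 lost the call in at least 1 of the 8 fits without 1 mite library. In the fit of 8 alone 125 were called, of which 39 lost the call in at least 1 of the 8 fits that left out 1 library.

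The question of whether priming acts differently under mites was addressed by setting the effect beside that in uninfested and caterpillar-fed plants, which share no library with the mite comparison. Priming called 2962 genes in uninfested plants (14.8%), 1490 higher (7.44%) and 1472 lower (7.35%). That split was 1290 higher and 1789 lower with RLE scaling, and 1382 and 1937 by DESeq2. Under caterpillars it called 1634 (8.15%), 800 higher (3.99%) and 834 lower (4.16%). Of the 709 genes called higher under mites, 464 were also higher in uninfested plants, which is 65.4% of the mite list and 31.1% of the 1490 of the other. Under caterpillars 391 were higher as well, 55.1% of the mite list and 48.9% of 800. Of the 566 genes called lower under mites, 254 were also lower in uninfested plants (44.9%, and 17.3% of 1472) and 269 under caterpillars (47.5%, and 32.3% of 834). Neither other state shared the call for 203 of the genes higher (28.6%) and 246 of those lower (43.5%), which does not show that their effects differed. The opposite call in uninfested plants was found for 1 gene higher and 12 genes lower under mites, and under caterpillars for 1 and 0. Without not-primed uninfested replicates 1 and 2 the overlap with uninfested plants was 360 genes higher (45.3% of 794 under mites) and 180 lower (26.2% of 687). Without replicates 3 and 4 it was 459 (57.4% of 799) and 345 (52.6% of 656).

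All 24 genes at the ends were called in the same direction in both other states. BT2 was at 162, 168, 194 and 155 CPM in primed uninfested plants, against 9.24, 18.5, 14.8 and 18.6 CPM in not-primed uninfested plants, a change of 3.47 ± 0.21. Under caterpillars it was at 38.2, 38.0, 59.5 and 66.1 CPM in primed plants, against 4.94, 4.27, 6.37 and 5.34 CPM in not-primed plants (3.26 ± 0.23). So its level was lower in both infested states than without pests, while the primed plants stood above the not-primed ones each time. The change was larger in size under mites than in either other state for 23 of the 24, but these genes were taken for their size under mites, so that count carries no weight. A direct test called the difference from uninfested plants for 8 of them, against 221 of 20038 tested genes (1.1%). For the difference from caterpillars it called 0 of them. Each difference contains the mite effect by which these genes were chosen, so the count of 8 carries no weight either.

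**Figure D4:**
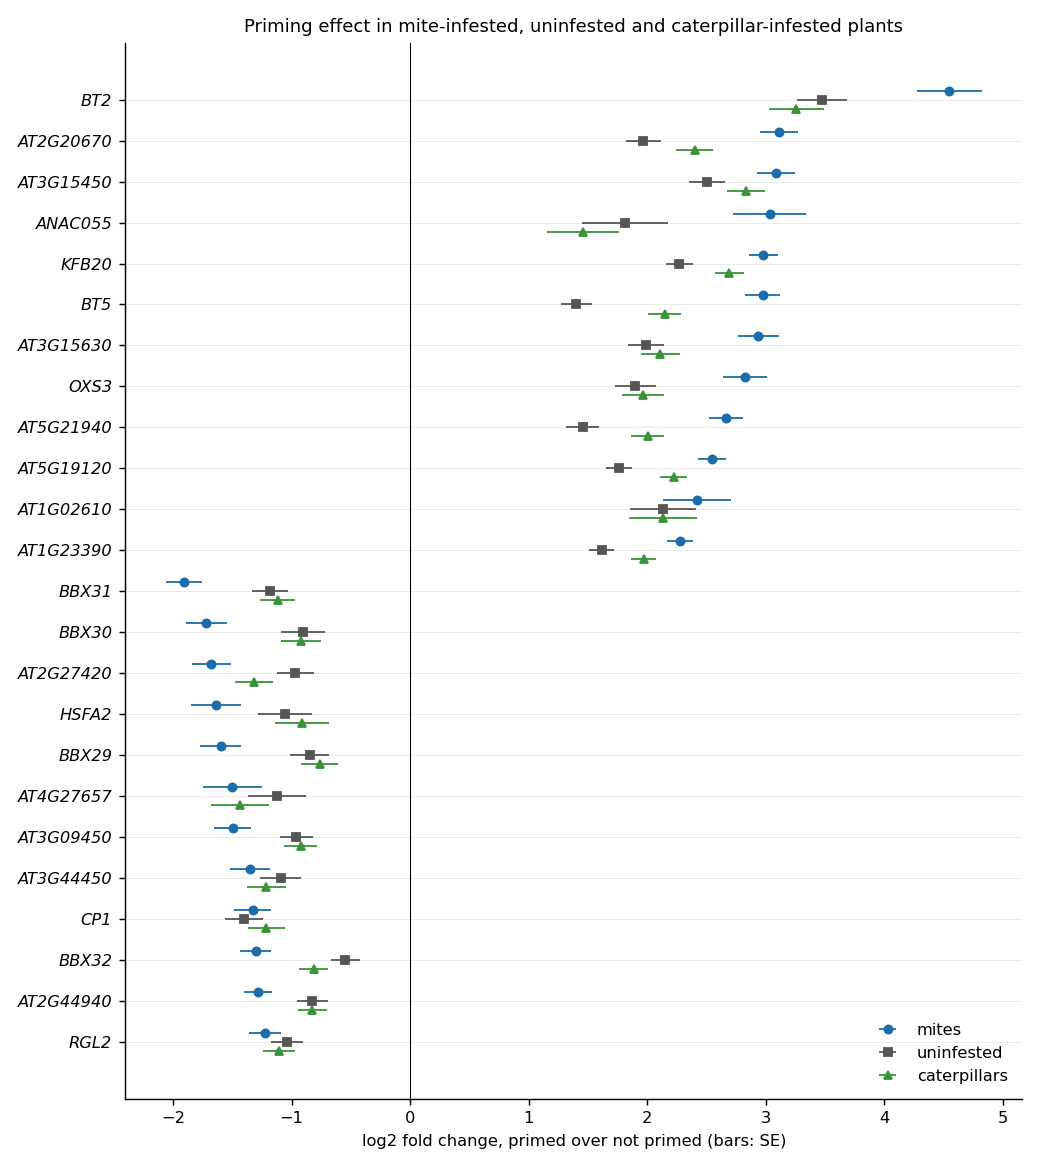
Log2 fold change of primed over not-primed plants under mites (circles), in uninfested plants (squares) and under caterpillars (triangles) for the 24 genes at the ends of the mite comparison; bars are the SE, and genes were chosen on the mite values. Every symbol of a gene lies on the same side of 0, with BT2 at 4.55, 3.47 and 3.26.

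The priming effect under mites differed from that in uninfested plants for 221 genes (1.1%), 106 higher (0.529%) and 115 lower (0.574%). The balance turned with RLE scaling (160 higher, 89 lower) and by DESeq2 (425 higher, 218 lower). The number rested on single libraries: it was 79 to 611 when 1 of the 16 was left out, a move of over 1.5 times for each but not-primed mite replicate 3, primed mite replicate 1 and primed uninfested replicate 3. It was 111 without not-primed uninfested replicates 1 and 2 but 2069 without replicates 3 and 4. The most positive difference among the genes named was that of PYL5. In uninfested plants it stood at 8.47, 6.96, 8.42 and 9.50 CPM in primed libraries, against 12.3, 13.2, 6.56 and 9.81 CPM in not-primed libraries. There priming left no called change (−0.33 ± 0.16, adjusted p = 0.17), against 1.27 under mites, and the difference was 1.60 ± 0.23 (adjusted p = 0.000928).

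BT5 averaged 101 ± 4.63 CPM in primed and 12.9 ± 1.91 CPM in not-primed plants under mites (SD, n = 4). In uninfested plants it averaged 215 ± 22.1 CPM in primed and 81.3 ± 8.48 CPM in not-primed plants. Priming thus raised it in both states, by 1.57 ± 0.19 more under mites (adjusted p = 0.000172). The same form was seen in AT5G21940 (difference 1.21 ± 0.19), AT2G20670 (1.15 ± 0.21) and AT5G61590, which changed by 2.01 ± 0.15 under mites and 0.77 ± 0.14 in uninfested plants (1.24 ± 0.20). AT1G06830 differed by 1.50 ± 0.30, and was called lower in uninfested plants (−1.10 ± 0.21) and not called under mites (0.41 ± 0.21). Its difference was not called without not-primed uninfested replicates 1 and 2 (adjusted p = 0.0929).

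In the other direction stood BT1. It averaged 76.8 ± 3.33 CPM in primed and 68.9 ± 12.7 CPM in not-primed plants under mites. Uninfested, it averaged 309.6 ± 9.54 CPM in primed and 111 ± 15.5 CPM in not-primed plants. So priming raised this BTB-TAZ gene without pests (1.48 ± 0.11) and left no called change under mites, a difference of −1.33 ± 0.15 (adjusted p = 9.02e-05). P5CS1, the rate-limiting proline synthesis gene, had 161, 153, 179 and 182 CPM in primed libraries, against 162, 125, 164 and 190.2 CPM in not-primed libraries under mites. In uninfested plants it had 199.6, 179.5, 172 and 183 CPM in primed libraries, against 46.0, 52.8, 85.7 and 79.1 CPM in not-primed libraries. The groups overlapped under mites and were apart without pests, and the difference was −1.40 ± 0.26 (adjusted p = 0.00941).

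Several stress genes were called lower under mites while standing higher, or not called, in uninfested plants. HB-12, a homeodomain factor gene of the abscisic acid response, changed by −0.42 ± 0.13 under mites and 0.66 ± 0.13 in uninfested plants (difference −1.08 ± 0.18). AT4G21930 changed by −0.50 ± 0.15 under mites and 0.72 ± 0.18 in uninfested plants (−1.22 ± 0.23). EGY3, a heat-induced plastid protein gene, changed by −0.74 ± 0.18 under mites and 0.35 ± 0.14 in uninfested plants (−1.08 ± 0.23). GolS2, a galactinol synthase gene of drought and cold responses, had 5.53, 4.40, 3.50 and 4.81 CPM in primed libraries, against 10.9, 7.26, 11.0 and 8.01 CPM in not-primed libraries under mites. Uninfested, it had 7.05, 7.80, 6.25 and 7.80 CPM in primed libraries, against 3.16, 3.67, 5.53 and 4.08 CPM in not-primed libraries. The order of the groups was turned round between the states, with no overlap in either. The difference was −1.84 ± 0.44 (adjusted p = 0.0442), but it lost its call in 13 of the 16 fits without 1 library and without not-primed uninfested replicates 1 and 2 (adjusted p = 0.15). The call of the mite effect ended in 8 of the 8 fits without 1 mite library for GolS2, in 6 for HB-12 and in 5 for AT4G21930, and the difference call of EGY3 ended in 4 of 16.

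**Figure D5:**
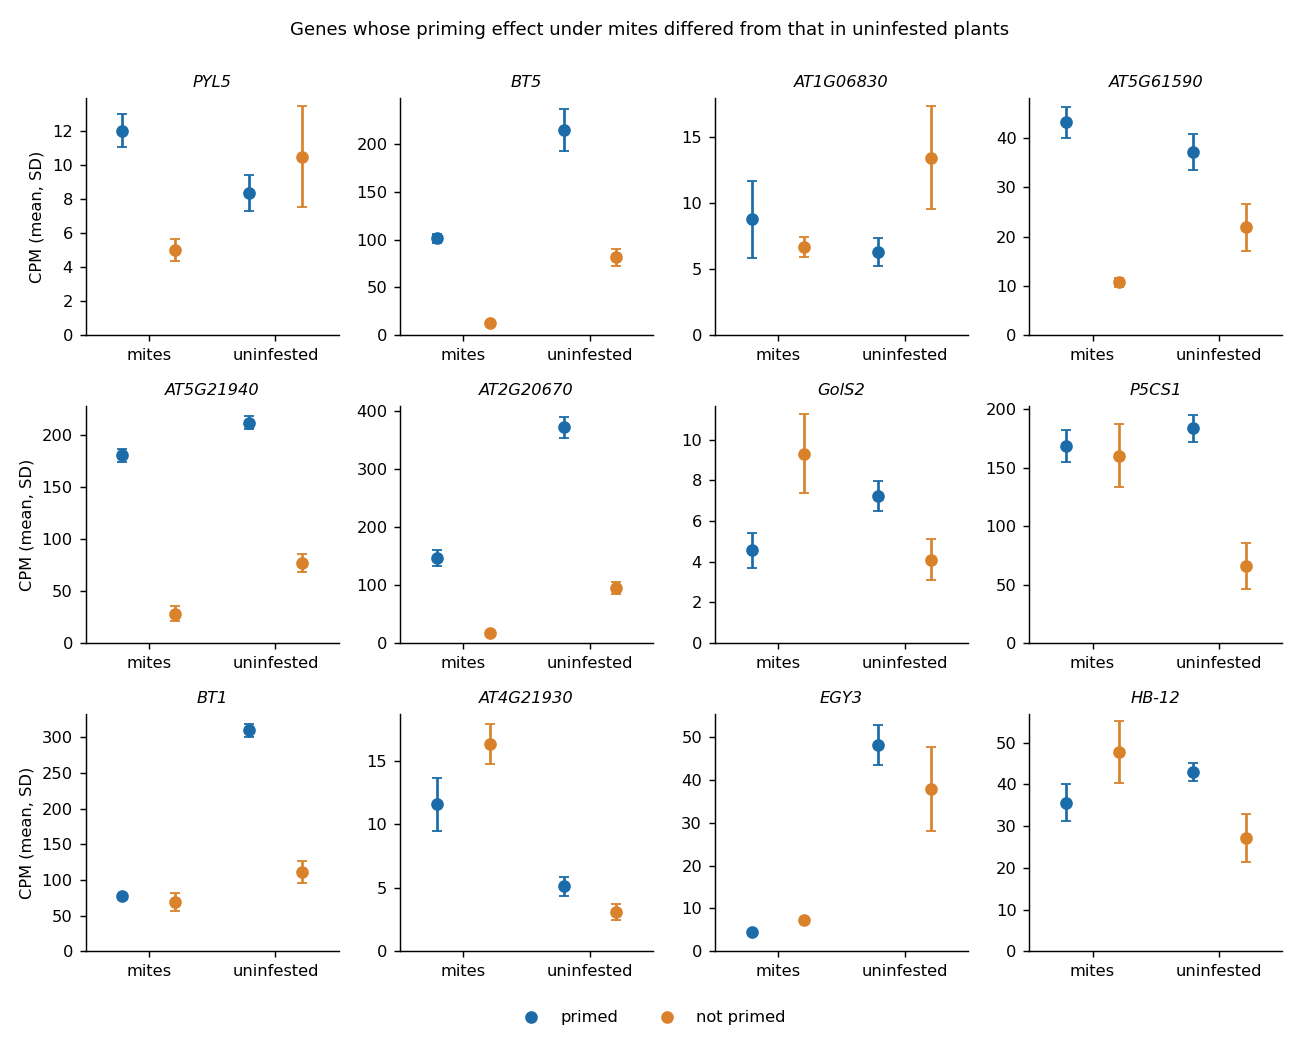
Mean CPM with SD (n = 4 libraries) in primed and not-primed plants under mites and without pests. Shown are the 6 genes with the highest and the 6 with the lowest difference of the priming effect. They were taken among genes whose difference was called, with a mean of at least 5 CPM in a group shown. BT1 shows 309.6 CPM in primed and 111 CPM in not-primed uninfested plants but 76.8 and 68.9 CPM under mites, while PYL5 shows 12 and 4.98 CPM under mites and 8.34 and 10.5 CPM without pests.

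Between mites and caterpillars, the priming effect was called different for 2 genes (0.00998%), 1 in each direction (0.00499%), while 1827 genes had an unadjusted p under 0.05 and DESeq2 called 42. OEP6, an outer plastid envelope protein gene, averaged 31.9 ± 4.46 CPM in primed and 31.1 ± 2.98 CPM in not-primed plants under mites. Under caterpillars it averaged 84.6 ± 1.77 CPM in primed and 139 ± 8.21 CPM in not-primed plants. Priming thus lowered it under caterpillars (−0.72 ± 0.08) and in uninfested plants (−0.81 ± 0.09) and left no called change under mites (0.04 ± 0.09). The difference was 0.76 ± 0.12 from caterpillars (adjusted p = 0.0353) and 0.85 ± 0.12 from uninfested plants (adjusted p = 0.000964). AT1G14890 averaged 19.3 ± 1.15 CPM in primed and 16.5 ± 1.02 CPM in not-primed plants under mites, against 21.2 ± 2.15 and 10.8 ± 0.582 CPM under caterpillars (difference −0.74 ± 0.13). Of the 16 fits without 1 library, 8 ended the call of OEP6 and 10 that of AT1G14890, where not-primed caterpillar replicates 1, 2 and 4 were among the libraries whose absence left 0 calls.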

How the data were processed

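Libraries from rosettes were made with a NEBNext Ultra kit after RNeasy extraction with DNase on the column, per the labels, and aligned with HISAT2 to TAIR10 per the submitters' processing notes. Not given in the sources used here are the aligner's version, the counting tool, the annotation, strand use and any filter, so close paralogs may share reads. The authors deposited raw counts per gene for 24 libraries in 1 table, and FPKM values per library, scaled by the authors by gene length and library size. Gene names came from a RefSeq table of TAIR10.1, which matched 32548 of 32833 identifiers (99.1%); no coordinates or sequences are printed, and the promoter motif count in the plan was not run. Of these genes, 6603 had no count in any library.

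The test was run with edgeR 4.0.16 in R 4.3.3, with TMM scaling, filterByExpr by group, 6 group means, quasi-likelihood F tests (2-sided) and Benjamini-Hochberg adjustment over all tested genes, threshold 0.05. SEs were derived by dividing the size of each log2 change by root F. The same test on the 8 mite libraries alone is printed beside it. Alternatives were DESeq2 1.42.0, RLE scaling, no filter, a replicate block, limma 3.58.1 on log2(FPKM + 1), with and without the filter, and on log2(FPKM + 0.1), leaving out each library, and leaving out either pair of not-primed uninfested libraries; leaving out libraries from the fit of 8 was added after seeing the data. The scripts were tested on simulated data. No 2 libraries of a group held identical counts. Deviations of the 2 mite groups showed little correlation by replicate number, but a replicate block raised the calls of the fit of 8 from 1570 to 1738. Whether a number marks a shared batch cannot be told from the labels.

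The members and the 43 gene lists (609 loci, 575 tested) were chosen with earlier results of these data known, and no set test was run. Named were the 12 highest and 12 lowest changes among genes called in both fits with at least 5 CPM in a mite group and no overlap between the groups, the 3 called members of each list with the smallest adjusted p, 10 sentinels (LOX2, VSP2, MYC2, JAZ10, PR1, PDF1.2a, PAD3, CYP79B2, LHCB1.3, CYP79F1) and the 6 highest and 6 lowest of each difference, or all genes where fewer than 10 were called. The 6 highest and 6 lowest were taken among genes whose difference was called, with a mean of at least 5 CPM in a compared group. Other list members were named after their values were seen.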

Additional observations from a re-analysis of the deposited data

Results flagged for a closer look

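Within groups of 4 libraries, 12 of the 184 tested groups (92 genes in 2 groups) held a library far from the other 3, by the gap to its neighbour as a share of the whole range, past Dixon's 95% critical value. Chance flags about 1 group in 20. In not-primed plants under mites, KFB20 was lowest in replicate 2 (10.7 CPM, share 0.986), WRKY22 lowest in replicate 2 (1.99 CPM, 0.951) and CYP79F1 lowest in replicate 2 (481 CPM, 0.864). HSP90-1 was lowest in replicate 3 (65.2 CPM, 0.914), AT2G30766 lowest in replicate 1 (54.9 CPM, 0.881) and VSP2 highest in replicate 4 (4514 CPM, 0.900). In primed plants under mites, PDF1.2a (129.7 CPM, 0.890) and SAG21 (21.1 CPM, 0.833) were highest in replicate 3, and ARR6 was lowest there (3.21 CPM, 0.876). AT1G02610 was highest (10.2 CPM, 0.835) and RGL2 lowest (4.49 CPM, 0.846) in replicate 4, and HAB1 was highest in replicate 1 (87.6 CPM, 0.848).

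The priming effect under mites differed from that in uninfested plants, by the test of the difference itself, for the genes that follow, KFB20 and HAB1 again among them. The log2 difference was positive for PYL5 (1.60), BT5 (1.57), AT1G06830 (1.50), AT5G61590 (1.24), AT5G21940 (1.21), AT2G20670 (1.15), AT3G15630 (0.95), OEP6 (0.85), AT5G19120 (0.79), KFB20 (0.71) and AT1G23390 (0.66). It was negative for GolS2 (−1.84), P5CS1 (−1.40), BT1 (−1.33), AT4G21930 (−1.22), EGY3 (−1.08), HB-12 (−1.08), AT2G44130 (−1.02), BBX32 (−0.76), SGR1 (−0.57) and HAB1 (−0.47). Leaving out 1 of the 16 libraries ended the call in at least 1 fit for AT3G15630 and AT2G44130 (10 fits each), BBX32 (9), KFB20 (7), AT1G23390 (6), HAB1 and SGR1 (5 each), GolS2 (13) and EGY3 (4). Without not-primed uninfested replicates 1 and 2 the calls of AT3G15630, BBX32, AT2G44130, HAB1, SGR1, AT1G06830 and GolS2 were absent (adjusted p between 0.0665 and 0.15). Against caterpillars, OEP6 differed by 0.76 and AT1G14890 by −0.74.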

How the results depend on the processing

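Priming under mites called 1275 genes, and 1570 in the fit of 8 libraries alone, 1738 with the replicate block added to it, 1442 by DESeq2, 1268 with RLE scaling, 1163 without the filter, 1281, 1244 and 1166 by limma on FPKM, and 1267 with the replicate block. Leaving out 1 mite library gave 906 to 1176 genes, and 1173 to 1557 in the fit of 8. Of the 92 named genes, RLE scaling, the replicate block and the loss of either pair of not-primed uninfested libraries changed no call under mites, while DESeq2 ended 2, limma 5 to 10, the fit without the filter 1, and the fit of 8 ended 1 and added 4. Deviations of the 2 mite groups correlated at 0.06, 0.01, −0.02 and −0.07 for replicates 1 to 4, though the block raised the calls of the fit of 8. The difference from uninfested plants had 221 genes, 643 by DESeq2 (425 higher, 218 lower), 249 with RLE scaling (160 higher, 89 lower, against 106 and 115), 135 by limma without the filter, 185 with the replicate block, and 111 and 2069 without not-primed uninfested replicates 1 and 2, or 3 and 4. Leaving out 1 library gave 79 to 611. The difference from caterpillars had 2 genes, 42 by DESeq2, 4, 4 and 5 by limma with added values of 1 and 0.1 and without the filter, 4 with the replicate block, 12 and 6 without either uninfested pair, and 0 to 5 without 1 library. Uninfested plants had 2962 genes, 1370 and 4537 without either pair, and 1854 to 3302 without 1 library; under caterpillars that range was 1032 to 1574. Uncalled changes turned sign for 4 genes without 1 library: CYP79F1 (−0.0437 to 0.0512, and −0.043 to 0.054 in the fit of 8), PAD3 (−0.0361 to 0.3083, and −0.0379 to 0.3073), P5CS1 (−0.0267 to 0.1688, and −0.0237 to 0.1722) and OEP6 (−0.0584 to 0.0974, and −0.0569 to 0.0967, with −0.0121 without not-primed replicate 4). The cause of these moves was not tested. Depth limits genes near 1 CPM, such as SWEET15.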
